A study of Mus musculus with 9 samples.

Results

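The genes described here carry the breakdown of branched-chain amino acids, lysine and propionate in mouse liver. They are 30 genes chosen by symbol from a table of 54393 genes, with earlier results of these data known. All 30 were among the 14873 genes with enough counts to be tested. Liver RNA was sequenced from C56Bl/6j mice (spelled as in the labels) on the purified diet AIN-76a, either conventional controls with no antibiotics (5 libraries, replicates 1 to 5) or mice given non-absorbable antibiotics to deplete gut bacteria (4 libraries, replicates 1, 2, 3 and 5). The comparison asks how liver transcripts differ when the gut microbiota is depleted. The labels do not name the antibiotics, their dose, the length of treatment or the age of the mice, and they do not state that every library is a different mouse. The p-values below therefore rest on the variation among these 9 libraries, which may be technical.

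Leucine, isoleucine and valine are first transaminated by BCAT2, mostly outside hepatocytes, and the resulting ketoacids are decarboxylated by the mitochondrial branched-chain ketoacid dehydrogenase, the committed step, for which liver is a main site. Leucine carbon then leaves as acetyl-CoA and acetoacetate, while valine and part of isoleucine leave as propionyl-CoA, which is carboxylated with biotin and isomerised to succinyl-CoA by an enzyme that needs cobalamin (vitamin B12). Lysine is broken down in mitochondria through saccharopine and 2-oxoadipate to glutaryl-CoA and then to acetyl-CoA, so the pathways share lipoate- and flavin-dependent enzymes.

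Library totals ran from 15422891 to 59179622 estimated counts. Antibiotics library 5 was the deepest, and the other 3 antibiotics libraries were shallower than every control. The lowest count of a member in any library was 151 (Bckdk). The 5 hepatocyte markers (Alb, Apoa1, Ttr, Serpina1a, Apob) summed to 77483 to 91535 counts per 1000000 (CPM) in controls and 75996 to 85958 CPM with antibiotics. Summed markers also overlapped between the groups for Kupffer cells and macrophages (110.1 to 325 CPM in controls, 115 to 143 CPM with antibiotics), endothelium (149.6 to 189.9 and 158 to 168 CPM), stellate cells (121 to 167 and 135 to 157 CPM), bile duct (33.8 to 93.3 and 33.4 to 66.6 CPM), red cells (151 to 232 and 211 to 291 CPM), lymphocytes (1.81 to 3.78 and 1.90 to 2.43 CPM), neutrophils (0.370 to 1.58 and 0.131 to 0.692 CPM) and adipocytes (7.18 to 9.65 and 8.89 to 11.9 CPM). The muscle markers Myh4 and Mb were at 0 in all 9 libraries, and Ckm and Acta1 were at or near 0. The top of the Kupffer cell and macrophage range came from control library 2 alone. There Clec4f was 130 CPM and Csf1r 85.6 CPM, against at most 80.9 and 39.0 CPM in the other controls. The part of other cell types in the results was not tested. Mitochondrially encoded transcripts made up 4.44% to 6.66% of counts in controls and 5.28% to 7.43% with antibiotics. Without them in the table the same 4 members passed.

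With antibiotics, 4 of the 30 members rose: Bcat2, the mitochondrial aminotransferase, Bckdhb and Dbt, which encode parts of the branched-chain ketoacid dehydrogenase, and Ivd, the first enzyme of the leucine arm. Their folds ran from 1.22 (Bckdhb) to 1.42 (Bcat2). In edgeR (quasi-likelihood F test, p-values adjusted by Benjamini-Hochberg over all tested genes, threshold 0.05), 1.63% of tested genes were higher, 1.05% lower and 2.68% changed in either direction. No member fell (0 of 30 by edgeR, DESeq2 and limma-voom alike), and 1 member, Mmadhc, was lower at an unadjusted p under 0.05. At that unadjusted threshold 14 members were higher, against 9.6% of all tested genes higher and 8.87% lower. The log2 fold change was above 0 in 28 of 30 members (29 with upper-quartile scaling, where Pcca turned from just below to just above 0, and 27 after thinning to the smallest total, where Bckdk turned below 0), against 48.6% of all tested genes, and its median was 0.18 (range -0.20 to 0.64) against -0.01. The groups did not overlap in 11 members, 10 higher and 1 lower, against 4.59% and 4.29% of tested genes (8.88% in either direction). In bulk liver, fewer cells of a type and less RNA per cell cannot be told apart.

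The 4 calls depended on single libraries. Omission of control 2 or of antibiotics 1, 3 or 5 left 0 members passing. Omission of control 1 left Ivd alone, and omission of control 4 left only Aass, which had not passed with all 9 libraries. Omission of antibiotics 2 left Ivd and Bcat2, that of control 5 left Ivd, Dbt and Bckdhb, and that of control 3 left all 4. Over all 9 omissions the adjusted p reached 0.0827 for Ivd, 0.121 for Dbt, 0.138 for Bcat2 and 0.0964 for Bckdhb, while the lowest of their log2 fold changes was 0.26 (Bckdhb). The count over all tested genes moved as well, from 398 to between 36 and 455. DESeq2 called 10 members higher in place of 4: the same 4 and Gcdh, Mccc2, Echs1, Dhtkd1, Mmachc and Aass. Its share over all genes was larger too, with 3.47% of the 14851 genes it tested higher and 3.09% lower (6.57% in either direction). For limma-voom, which called 5 members higher (the same 4 and Aass), the shares were 1.82% and 0.955% (2.78%).

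**Figure D1:**
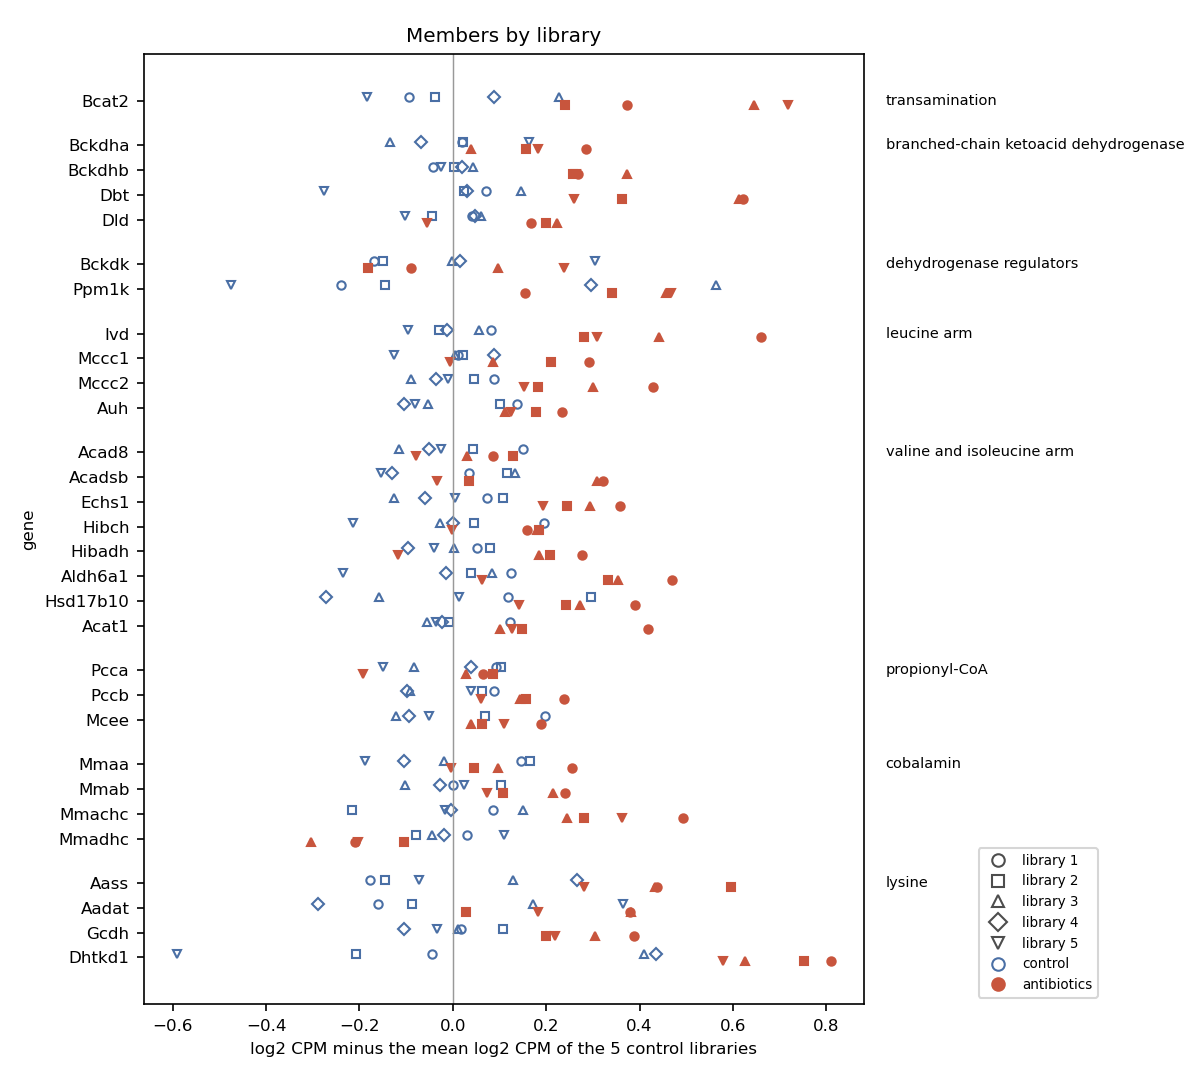
Each of the 30 members is a row, grouped by role, and the x axis is the log2 CPM of a library minus the mean log2 CPM of the 5 control libraries. Blue open symbols are controls and red filled symbols antibiotics, with 1 symbol shape per library number. The red symbols lie right of every blue symbol in 10 rows and left of every blue symbol in the Mmadhc row. Of all tested genes, 4.59% were apart in the first way and 4.29% in the second.

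The shift was spread over the antibiotics libraries unevenly. Antibiotics library 1 had 28 of 30 members above the control mean, library 2 had 28, library 3 had 29 and library 5, the deepest, had 21. Control libraries 1 to 5 had 22, 19, 15, 10 and 8. The median member lay 0.29, 0.19, 0.23 and 0.13 log2 units above the control mean in antibiotics libraries 1, 2, 3 and 5, and between -0.05 and 0.06 in the controls. All 4 antibiotics libraries were thus above all 5 controls in this median, with library 5 nearest to them. Summed over the 30 members, transcripts came to 3216 ± 85.9 CPM in controls (SD, n = 5, range 3086 to 3297) and 3809 ± 240 CPM with antibiotics (SD, n = 4, range 3511 to 4096). Relative to the control mean, the 4 lysine genes averaged 0.50, 0.39, 0.44 and 0.32 log2 units in antibiotics libraries 1, 2, 3 and 5, and the 4 dehydrogenase subunits 0.34, 0.24, 0.31 and 0.16. In both of these groups every antibiotics library was above every control. The same held for the leucine arm, with 0.14 in antibiotics library 5 against 0.08 in control library 1. It held narrowly for Bcat2, with 0.24 in antibiotics library 2 against 0.23 in control library 3. The valine and isoleucine arm, the cobalamin genes and the dehydrogenase regulators overlapped. The averages of the propionyl-CoA genes were 0.16, 0.10, 0.07 and -0.01, within or next to the control range of -0.10 to 0.13.

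Because 3 of the 4 members that passed have a promoter window in RefSeq (GRCm38.p6), the bases before their annotated starts are shown first, each read 5′ to 3′ on the + strand, the strand of these genes, with CCAAT boxes (CCAAT, or ATTGG when the box is on the other strand) in capitals. The stretches are chr7:45569903-45570152 for Bcat2, chr9:83924887-83925136 for Bckdhb and chr2:118861744-118861953 for Ivd, the last cut to 210 bases where the annotated transcript begins.
Bcat2: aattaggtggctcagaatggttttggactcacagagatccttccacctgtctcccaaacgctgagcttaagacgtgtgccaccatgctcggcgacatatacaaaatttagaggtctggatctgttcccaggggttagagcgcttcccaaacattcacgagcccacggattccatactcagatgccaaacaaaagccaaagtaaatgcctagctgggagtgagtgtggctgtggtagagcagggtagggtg
Bckdhb: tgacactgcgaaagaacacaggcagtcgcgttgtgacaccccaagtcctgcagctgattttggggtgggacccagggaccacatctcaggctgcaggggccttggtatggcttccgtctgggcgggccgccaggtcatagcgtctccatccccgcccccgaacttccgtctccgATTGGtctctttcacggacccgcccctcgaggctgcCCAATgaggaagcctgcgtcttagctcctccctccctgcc
Ivd: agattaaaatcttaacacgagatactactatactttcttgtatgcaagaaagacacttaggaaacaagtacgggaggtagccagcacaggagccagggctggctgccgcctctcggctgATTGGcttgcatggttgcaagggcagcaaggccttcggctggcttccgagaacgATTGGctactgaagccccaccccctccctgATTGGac

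In the 250 bases before the RefSeq start, Ivd had 4 CCAAT boxes, of which 3 lie in the stretch shown, Bckdhb had 2 and Bcat2 had 0. Of the 4 members that rose, the 3 with a window therefore do not all share this motif in these windows. A window was matched for 27 of the 30 members, all but Dbt, Acat1 and Mmadhc. Of those 27, 17 (63.0%) held a CCAAT box on either strand, against 33.8% of 32851 windows of all genes. The sets are unlike: each member entered with a single window, near the start of its principal transcript. The share over all genes pools every window, whether or not the gene was tested here. The E-box CACGTG was in 1 of 27 (Mccc2) against 6.02% of all windows. The CRE TGACGTCA, the ERR element TCAAGGTCA, the NRF1 motif, the D-box TTATGTAA and the DR1 element were in 0 of 27, against 1.55%, 0.387%, 0.782%, 0.819% and 0.0335% of all windows. The ERR element and DR1 share the letters AGGTCA, and both strands were searched for each motif. A match describes letters only, and its absence says only that these letters are not in the window.

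Bcat2 (chromosome 7, 45570153 to 45589711, + strand, GRCm38) encodes the mitochondrial aminotransferase that starts branched-chain breakdown. It measured 12.1, 12.6, 15.2, 13.8 and 11.4 CPM in control libraries 1 to 5 and 16.8, 15.3, 20.3 and 21.3 CPM in antibiotics libraries 1, 2, 3 and 5. The groups did not overlap, but antibiotics library 2 lay just above control library 3. The means were 13.0 ± 1.48 CPM (SD, n = 5) and 18.4 ± 2.84 CPM (SD, n = 4), a log2 fold change of 0.51 ± 0.12 (SE, edgeR quasi-likelihood adjusted p = 0.0451). The gene 0610005C13Rik lies across Bcat2 exons on the opposite strand and shares 249 nt with it at 100% identity. It was far more abundant, at 115 ± 12.7 CPM in controls and 149.6 ± 13.5 CPM with antibiotics, with a log2 fold change of 0.38 ± 0.09 (SE, edgeR adjusted p = 0.0583). No source used here says whether the counting used strand, so the reads of these genes cannot be told apart with certainty and the rise of Bcat2 carries that doubt.

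The branched-chain ketoacid dehydrogenase has 3 parts: E1, a decarboxylase of alpha and beta chains (Bckdha, Bckdhb), E2, the lipoate-bearing core transacylase (Dbt), and E3, a flavoprotein shared with the other ketoacid dehydrogenases (Dld). Both Bckdhb and Dbt rose, and Bckdha and Dld did not pass. Bckdhb (chromosome 9, 83925145 to 84124240) measured 43.4, 44.8, 46.1, 45.3 and 43.9 CPM in controls and 53.8, 53.4, 57.9 and 53.6 CPM with antibiotics. All 4 antibiotics libraries were above the highest control, and the controls had a coefficient of variation of 2.41%. The log2 fold change was 0.29 ± 0.06 (44.7 ± 1.08 to 54.7 ± 2.12 CPM, SD, edgeR adjusted p = 0.0322). Dbt (chromosome 3, 116513070 to 116549981) measured 60.4, 58.4, 63.6, 58.7 and 47.5 CPM in controls and 88.4, 73.9, 87.8 and 68.8 CPM with antibiotics. Again the groups did not overlap, with control library 5 lowest of all and antibiotics library 5 lowest of its group. Its log2 fold change was 0.46 ± 0.10 (57.7 ± 6.09 to 79.7 ± 9.91 CPM, SD, edgeR adjusted p = 0.0399). For Bckdha the values were 189 ± 14.9 and 212 ± 14.8 CPM (log2 fold change 0.16 ± 0.08, adjusted p = 0.302), and for Dld 109 ± 5.24 and 119 ± 10.2 CPM (0.14 ± 0.07, adjusted p = 0.353).

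Bckdk, the kinase that phosphorylates and inactivates E1, and Ppm1k, the phosphatase that reactivates it, did not pass in edgeR, DESeq2 or limma-voom, and neither had an unadjusted p under 0.05. Bckdk was low, at 9.33, 9.46, 10.5, 10.6 and 13.0 CPM in controls and 9.87, 9.25, 11.2 and 12.4 CPM with antibiotics. The antibiotics libraries fell almost within the control range (log2 fold change 0.03 ± 0.12, edgeR adjusted p = 0.933). Ppm1k measured 44.8, 47.8, 78.1, 64.9 and 38.0 CPM in controls and 58.8, 67.0, 72.5 and 73.0 CPM with antibiotics. Control library 3 was the highest of all 9 and control library 5 the lowest, so the groups overlapped (0.31 ± 0.18, adjusted p = 0.398). Ppm1k shares at least 200 nt at 95% identity or more with transcripts of Gldc and Zmynd8, which leaves some of its reads uncertain.

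**Figure D2:**
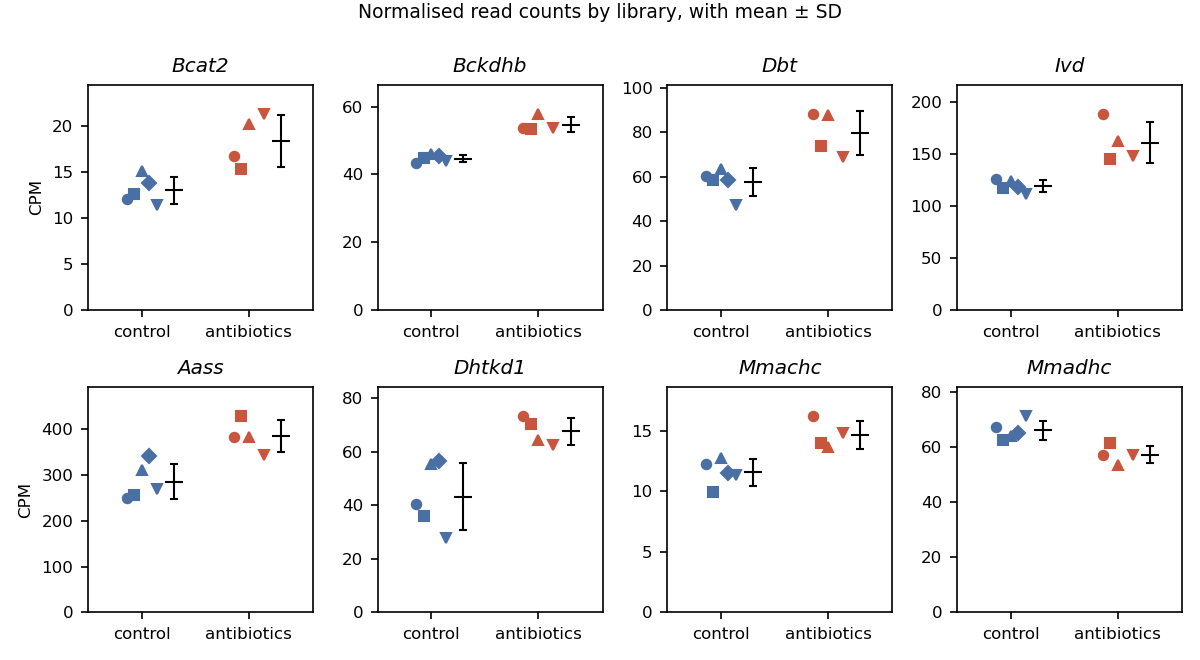
CPM by library for Bcat2, Bckdhb, Dbt, Ivd, Aass, Dhtkd1, Mmachc and Mmadhc, with each y axis starting at 0 and bars for the mean and SD of 5 control and 4 antibiotics libraries. Symbol shapes give the library number. The groups do not overlap in any of the 8 panels, and Mmadhc is the one with lower values after antibiotics. All 8 were picked from the 11 of 30 members without overlap, against 8.88% of all tested genes. No member with overlapping groups is drawn.

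In the leucine arm, Ivd, isovaleryl-CoA dehydrogenase, rose, and the genes of the following steps did not pass in edgeR. Ivd (chromosome 2, 118861954 to 118882909) measured 126, 117, 124, 119 and 112 CPM in controls and 189, 145, 162 and 148 CPM with antibiotics. Every antibiotics library was above every control, with antibiotics library 1 highest. The log2 fold change was 0.43 ± 0.08 (119.7 ± 5.81 to 161 ± 19.9 CPM, SD, edgeR adjusted p = 0.0305). Mccc2, the non-biotin subunit of methylcrotonyl-CoA carboxylase, measured 50.2, 48.7, 44.4, 46.1 and 46.8 CPM in controls and 63.5, 53.5, 58.1 and 52.5 CPM with antibiotics. These groups were also apart, but the difference did not pass in edgeR (0.27 ± 0.07, adjusted p = 0.0762), while DESeq2 called it (adjusted p = 0.0293). The biotin-carrying subunit Mccc1 went from 52.2 ± 2.76 to 57.8 ± 5.26 CPM (adjusted p = 0.337) and Auh, methylglutaconyl-CoA hydratase, from 24.4 ± 1.91 to 27.2 ± 1.06 CPM (adjusted p = 0.285). Neither was separate between the groups.

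Of the 8 genes of the valine and isoleucine arm, 0 passed edgeR's test, and DESeq2 called 1 higher (Echs1), against 3.47% of the genes it tested. At an unadjusted p under 0.05, 4 of the arm were higher, against 9.6% of all tested genes. All 8 log2 fold changes of the arm were above 0, from 0.04 to 0.31, against 48.6% of all tested genes. Echs1, the short-chain enoyl-CoA hydratase, measured 195, 199.8, 170.0, 178 and 186 CPM in controls and 238, 219.7, 227 and 212 CPM with antibiotics. It was the only gene of this arm with no overlap between the groups (log2 fold change 0.27 ± 0.07, edgeR adjusted p = 0.0707), and its exons meet those of Paox (58.3 to 80.1 CPM) on the opposite strand. Aldh6a1, methylmalonate semialdehyde dehydrogenase, measured 315, 297, 306, 286 and 246 CPM in controls and 400.4, 364, 369 and 302 CPM with antibiotics. Antibiotics library 5 lay among the controls, and the other 3 lay above them (0.31 ± 0.10, edgeR adjusted p = 0.134). Acat1, the mitochondrial acetoacetyl-CoA thiolase, had a log2 fold change of 0.20 (adjusted p = 0.226), and Hsd17b10, a dehydrogenase of the isoleucine arm, 0.25 (adjusted p = 0.249). The acyl-CoA dehydrogenases Acad8 (valine) and Acadsb (isoleucine) stood at 0.04 and 0.16, and the valine enzymes Hibch and Hibadh at 0.13 and 0.14, with adjusted p between 0.418 and 0.821.

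The propionyl-CoA genes had the lowest median log2 fold change of the role groups, 0.09. Of these, 0 of 3 passed in edgeR or DESeq2 and 0 of 3 had an unadjusted p under 0.05. Over all tested genes, 2.68% passed in edgeR and 18.5% had such an unadjusted p, and 6.57% of those DESeq2 tested passed there. Pcca, the biotin-carrying subunit of propionyl-CoA carboxylase, stood at 89.3 ± 6.82 CPM in controls and 89.1 ± 7.58 CPM with antibiotics, a log2 fold change of -0.00 ± 0.08 (edgeR adjusted p = 0.987). Its exons overlap those of Ggact (27.0 to 39.5 CPM) on the opposite strand. Pccb, the other subunit, measured 154, 152, 136, 136 and 149 CPM in controls and 171, 162, 160.4 and 151 CPM with antibiotics. Only antibiotics library 5 lay inside the control range (0.15 ± 0.07, adjusted p = 0.281). Mcee, methylmalonyl-CoA epimerase, measured 33.7, 30.8, 27.0, 27.5 and 28.3 CPM in controls and 33.5, 30.7, 30.2 and 31.7 CPM with antibiotics, so its groups overlapped (0.09 ± 0.08, adjusted p = 0.567).

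Of the 4 genes that handle cobalamin, 0 passed in edgeR, and DESeq2 called 1 higher (Mmachc), against 3.47% of the genes it tested. At an unadjusted p under 0.05, 2 were higher and 1 lower, against 9.6% and 8.87% of all tested genes. Mmachc, which frees cobalamin from its ligands in the cytosol, measured 12.2, 9.92, 12.8, 11.5 and 11.4 CPM in controls and 16.2, 14.0, 13.6 and 14.8 CPM with antibiotics. Every antibiotics library was above every control (log2 fold change 0.34 ± 0.09, edgeR adjusted p = 0.0704). Mmadhc, which acts with MMACHC and directs cobalamin to mitochondria or cytosol, measured 67.3, 62.4, 64.0, 65.1 and 71.2 CPM in controls and 57.0, 61.3, 53.4 and 57.3 CPM with antibiotics. Here every antibiotics library was below every control, although antibiotics library 2 was close to control library 2 (-0.20 ± 0.07, edgeR adjusted p = 0.129). Mmab, the adenosyltransferase, had a log2 fold change of 0.16 (adjusted p = 0.254), and Mmaa, which guards loading of the cofactor onto methylmalonyl-CoA mutase, 0.09 (adjusted p = 0.657).

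The 4 lysine genes had the highest median log2 fold change of the role groups with more than 1 gene, 0.35. In edgeR 0 of 4 passed and 3 were higher at an unadjusted p under 0.05, against 9.6% of all tested genes. DESeq2 called those 3 (Aass, Gcdh, Dhtkd1) higher, against 3.47% of the genes it tested. With limma-voom 1 was higher (Aass), against 1.82%. Aass, the bifunctional enzyme that forms and splits saccharopine, measured 251, 257, 310.4, 341 and 269.7 CPM in controls and 384, 429, 383 and 345 CPM with antibiotics. The groups were apart only narrowly, since control library 4 almost reached antibiotics library 5 (0.43 ± 0.11, edgeR adjusted p = 0.0590). Gcdh, glutaryl-CoA dehydrogenase, measured 391, 416, 389.7, 359.6 and 378 CPM in controls and 505, 444, 477 and 450.2 CPM with antibiotics. All antibiotics libraries were above all controls (0.28 ± 0.08, edgeR adjusted p = 0.0758). Dhtkd1, the E1 of the 2-oxoadipate dehydrogenase, had the largest log2 fold change of the 30 members and is given in full for that reason, after its values were seen. It measured 40.5, 36.2, 55.4, 56.5 and 27.7 CPM in controls and 73.3, 70.3, 64.4 and 62.4 CPM with antibiotics. The groups did not overlap, but the controls spread over a coefficient of variation of 28.8% (0.64 ± 0.18, edgeR adjusted p = 0.0809). Aadat, which transaminates 2-aminoadipate, stood at 69.4 ± 13.0 and 81.4 ± 9.42 CPM with overlapping groups (adjusted p = 0.380).

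**Figure D3:**
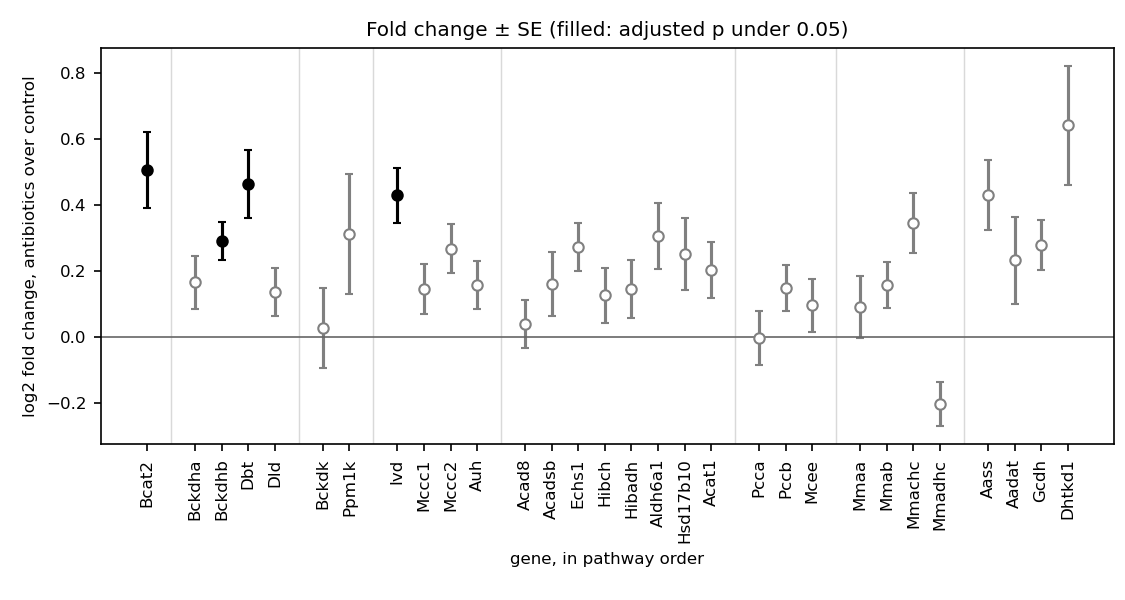
Log2 fold change (antibiotics over control) of the 30 members in pathway order, with bars of 1 SE from the edgeR fit and filled points for the 4 members with an adjusted p under 0.05. Of the points, 28 lie above 0 (29 with upper-quartile scaling, which moves Pcca just above 0, and 27 after thinning, which moves Bckdk below 0). Dhtkd1 is highest at 0.64 and Mmadhc lowest at -0.20.

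Levels of different genes were compared per kilobase of the principal transcript. In controls Gcdh was highest at 179 CPM per kilobase, followed by Hibadh (137), Echs1 (119), Hsd17b10 (104) and Bckdha (99.4). At the low end were Mmaa (2.77), Bckdk (3.10), Mmachc (5.49), Bcat2 (7.36) and Dhtkd1 (7.89 CPM per kilobase). Within the dehydrogenase the levels in controls fell from Bckdha through Dld (42.7) and Bckdhb (30.4) to Dbt (17.5 CPM per kilobase). The 3 members that rose besides Bcat2 thus stood in the middle of the range, and Bcat2 near its foot. Ivd, at 32.7 CPM per kilobase in controls, was close to Pcca (34.5), Aadat (35.2) and Hibch (35.6), gaps smaller than the SD over the control libraries of each of those 3 genes.

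**Figure D4:**
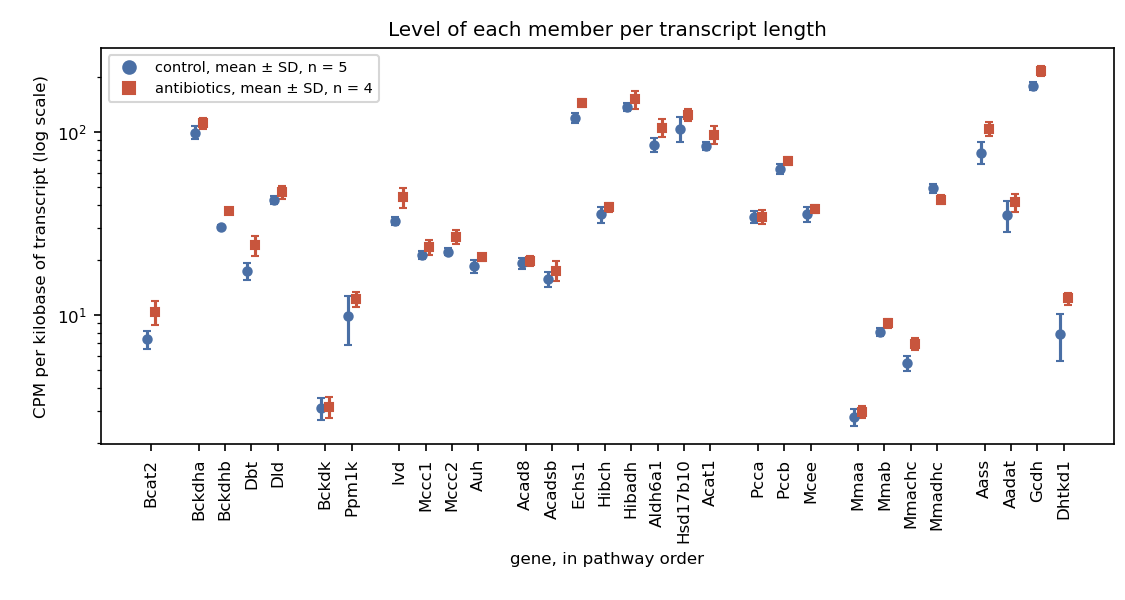
CPM per kilobase of principal transcript on a log scale for each member, as mean and SD of 5 control (blue circles) and 4 antibiotics libraries (red squares). Control levels run from 2.77 (Mmaa) to 179 (Gcdh).

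Ratios of partners within a library do not depend on its scaling factor, and they are given as values without a test. The ratio of Dld to Dbt (per kilobase) was 2.46 ± 0.184 in controls and 1.96 ± 0.172 with antibiotics, with no overlap between the groups. Ivd to Mccc1 was 1.54 ± 0.0758 and 1.87 ± 0.172, again with no overlap, though antibiotics library 2 (1.62) only just exceeded control library 1 (1.61). The ratio of Mmadhc to Mmachc went from 9.02 ± 0.849 to 6.15 ± 0.558, and its lowest control (7.85) lay above its highest antibiotics library (6.88). Other partners overlapped: Bckdha to Bckdhb was 3.28 ± 0.321 and 3.01 ± 0.299, Ppm1k to Bckdk 3.23 ± 1.02 and 3.91 ± 0.379, Mccc1 to Mccc2 0.957 ± 0.0694 and 0.88 ± 0.0654, and Pcca to Pccb 0.551 ± 0.0441 and 0.495 ± 0.0267. So did Dbt to Bckdha (0.178 ± 0.0305 and 0.218 ± 0.0326) and Dbt to Bckdk (5.76 ± 1.16 and 7.82 ± 1.49). Bckdha to Bcat2 (13.7 ± 2.55 and 10.9 ± 2.11) and Mmaa to Mmab (0.344 ± 0.0334 and 0.329 ± 0.0127) also overlapped. The remaining pairs computed, Aass to Dhtkd1 (10.3 ± 2.45 and 8.45 ± 0.578) and Gcdh to Dhtkd1 (24.4 ± 7.69 and 17.6 ± 1.22), overlapped too.

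**Figure D5:**
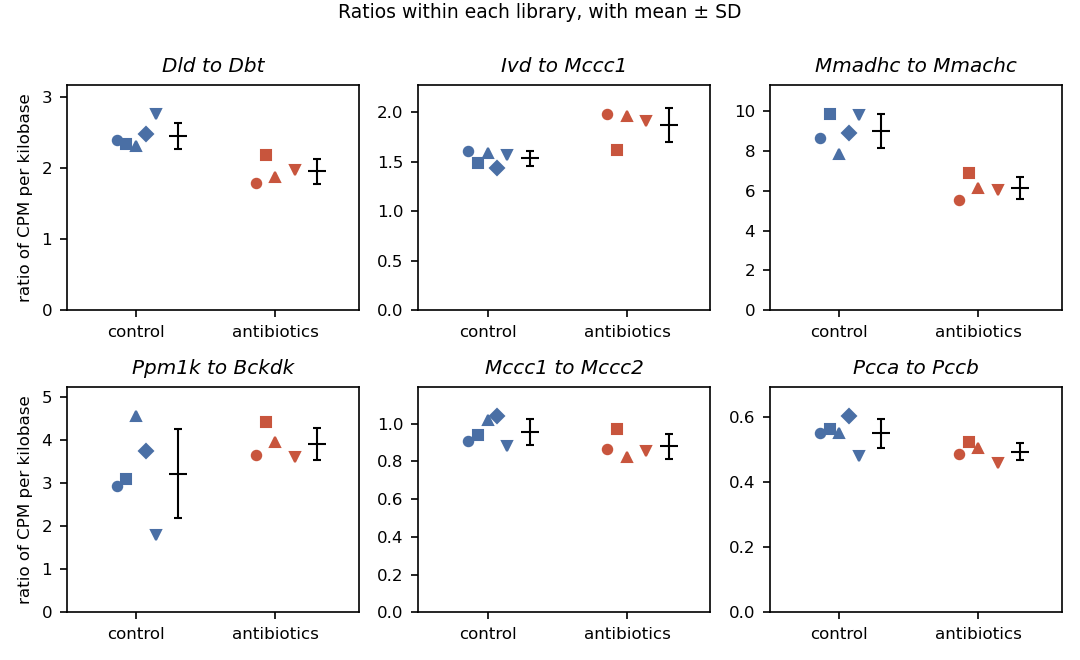
Ratios of CPM per kilobase within each library for 6 pairs of members, with the mean and SD of 5 control and 4 antibiotics libraries and y axes from 0. The upper 3 pairs do not overlap between the groups, and the lower 3 do. The other pairs computed are not drawn, and all of them overlap.

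Around these pathways, 51 genes of neighbouring steps, cofactor supply and sister dehydrogenases were listed, and 49 were tested. Of the 49, 4 were higher and 0 lower by edgeR, against 1.63% and 1.05% of all tested genes. At an unadjusted p under 0.05, 9 were higher and 3 lower, against 9.6% and 8.87% of all tested genes. DESeq2 called 6 higher and 2 lower, against 3.47% and 3.09% of the genes it tested, and limma-voom 4 and 0, against 1.82% and 0.955%. The median log2 fold change was 0.06 over neighbouring steps, 0.09 over cofactor supply and -0.11 over the sister dehydrogenases and their regulators, against 0.18 over the 30 members.

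Among neighbouring steps, 2 of 19 genes rose, against 1.63% of all tested genes. Abat, which transaminates GABA and beta-alanine, measured 245, 217, 237, 235 and 203 CPM in controls and 386, 317, 374 and 302 CPM with antibiotics (log2 fold change 0.60 ± 0.10, edgeR adjusted p = 0.0140). Hykk, the kinase of hydroxylysine, measured 95.3, 92.5, 103, 97.1 and 83.8 CPM in controls and 132, 124, 119 and 127 CPM with antibiotics (0.41 ± 0.07, edgeR adjusted p = 0.0178). In both genes all antibiotics libraries were well above all controls. Dlst, the E2 that the 2-oxoglutarate and 2-oxoadipate dehydrogenases share, measured 154, 157, 144, 143 and 156 CPM in controls and 174, 181, 175 and 169 CPM with antibiotics. Its groups did not overlap, and it did not pass in edgeR (0.21 ± 0.06, adjusted p = 0.0945) but did in DESeq2 (adjusted p = 0.0170). The mutase that ends propionate breakdown, listed as Mut, stood at 148 ± 11.3 and 173 ± 13.6 CPM (adjusted p = 0.163), named here after its values were seen.

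In cofactor supply, 1 of 18 genes rose, against 1.63% of all tested genes. Slc5a6, a transporter of biotin and pantothenate, measured 12.4, 12.1, 14.5, 9.96 and 13.4 CPM in controls and 17.8, 16.9, 18.6 and 24.8 CPM with antibiotics (0.66 ± 0.13, edgeR adjusted p = 0.0324). Antibiotics library 5 was highest, and no control reached the lowest antibiotics library. Its exons overlap Atraid on the opposite strand (47.5 to 60.9 CPM), which leaves its reads uncertain. Abcd4, which acts in cobalamin release from lysosomes, measured 11.9, 11.995, 13.3, 14.3 and 10.3 CPM in controls and 16.3, 17.2, 15.9 and 15.6 CPM with antibiotics (0.39 ± 0.10, edgeR adjusted p = 0.0581, DESeq2 adjusted p = 0.0137). Mtr, the cobalamin-dependent methionine synthase, measured 15.9, 14.8, 16.5, 18.1 and 12.1 CPM in controls and 11.5, 11.8, 11.5 and 12.9 CPM with antibiotics (-0.37 ± 0.11, edgeR adjusted p = 0.0975, DESeq2 adjusted p = 0.0452). Abcd4 was separate between the groups, and Mtr overlapped through control library 5, without which it passed in edgeR (adjusted p = 0.0272).

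Among the pyruvate and oxoglutarate dehydrogenases and their regulators, 1 of 12 rose, against 1.63% of all tested genes. It was Pdk2, a kinase that inactivates pyruvate dehydrogenase, at 92.8, 95.7, 89.6, 87.6 and 86.1 CPM in controls and 114, 116, 119 and 128 CPM with antibiotics (0.40 ± 0.06, edgeR adjusted p = 0.0140). Its relative Pdk4 measured 8.10, 4.78, 4.75, 7.85 and 5.25 CPM in controls and 3.40, 4.29, 3.15 and 3.78 CPM with antibiotics (-0.75 ± 0.20, edgeR adjusted p = 0.0694, DESeq2 adjusted p = 0.0121). Pdk2 and Pdk4 were thus both separate between the groups, on opposite sides. The phosphatase Pdp1 measured 1.605, 0.936, 1.17, 1.36 and 0.771 CPM in controls and 0.654, 0.892, 0.608 and 0.918 CPM with antibiotics, with overlap (-0.58 ± 0.26, edgeR adjusted p = 0.272). Omission of antibiotics library 3 left none of the 49 passing, and omission of antibiotics 1 or 5 left 1.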

How the data were processed

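RNA sequencing of mouse liver gave 9 libraries, grouped by their labels (5 control, 4 antibiotics). Per the labels' protocols, RNA was taken with Trizol, cleaned on columns and made into stranded mRNA libraries. The authors deposited estimated counts per gene, and the submitters' processing notes name Salmon and GRCm38. Version, settings, annotation and use of strand: not given in the sources used here. The deposited values were all whole numbers.

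All 54393 gene identifiers matched GENCODE M21, where Mmut is listed as Mut. Genes were kept by filterByExpr (minimum count 10, minimum total 15), which left 14873. Counts were scaled by TMM and tested with edgeR 4.0.16 (quasi-likelihood F test, group as the only term, R 4.3.3, Benjamini-Hochberg, threshold 0.05). The biological coefficient of variation was 16.7%. The SE is the size of the log2 fold change divided by the square root of F. CPM are per 1000000 TMM-scaled counts. The procedure was tested on simulated data, where it just missed a first limit set on the share of changed genes recovered. Limits on bias and on false calls, set after the missed genes had been looked at, were met. Every pair of libraries of the same group differed by more than sampling noise (lowest chi-square per degree of freedom 18.5). Levels per kilobase use the APPRIS principal transcript. A prior count of 2 entered only the check of replicate numbers. Shared sequence was found with BLAST+ 2.17.0 (95% identity over 200 nt), and exons on the opposite strand from M21: 7 members had such exons and 3 had a close sequence. Promoter windows are RefSeq's.

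Alternatives were DESeq2 1.42.0, limma-voom 3.58.1, scaling by RLE or by the upper quartile, 2 other filters, a replicate block, thinning to 15422891 counts, removal of mitochondrially encoded genes and omission of each library. The members, lists and motifs were chosen with earlier results of these data known. Values in full are given for passing members and the 2 members with the smallest p in each of 8 role groups, and of each neighbour list for passing genes and the 3 with the smallest p.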

Additional observations from a re-analysis of the deposited data

Results flagged for a closer look

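Among 60 groups of libraries (30 members in each of 2 conditions), 4 held a library far from the rest of its group, where chance alone flags about 1 in 20. Bckdhb was 57.9 CPM in antibiotics library 3 against 53.4 to 53.8 CPM in the other 3. Hibch, the hydrolase of the valine arm, was 64.8 CPM in antibiotics library 5 against 72.3 to 73.6 CPM. Acat1, the mitochondrial thiolase, was 312 CPM in control library 1 against 276 to 285 CPM, and 382 CPM in antibiotics library 1 against 307 to 317 CPM. Of these genes Bckdhb passed the test, and it did not pass without antibiotics library 3. That loss was not particular to library 3, since of the 9 omissions Bckdhb passed only without control 3 or control 5. Its log2 fold change stayed between 0.26 and 0.30 over the 9 omissions.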

How the results depend on the processing

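The median log2 fold change of the 30 members stayed between 0.13 and 0.23 under every alternative run. The number of members higher with antibiotics was 4 in the fit reported, 10 with DESeq2, 2 with the replicate block, 2 after thinning to the smallest total, and 0 to 4 when each library was left out. Genes around the pathways went from 4 higher to 1 with the replicate block and 0 to 4 without each library, and from 0 lower to 2 with DESeq2, 1 after thinning and 0 to 1 without each library. Over all genes 398 passed, against 975 with DESeq2, 169 with the replicate block and 36 to 455 without each library. The cause of these changes was not tested. Ivd and Dbt passed in 9 of 9 alternatives that kept all libraries. Bcat2 passed in 7, failing with the block and after thinning, and Bckdhb in 6, failing with those and with no filter (adjusted p = 0.0703). The log2 fold change of Pcca, near 0 throughout, turned from -0.0041 to 0.0089 with upper-quartile factors, 0.0013 with limma-voom and 0.0061 with the replicate block, and ran from -0.040 to 0.056 without each library. That of Bckdk turned from 0.027 to -0.017 after thinning and ran from -0.060 to 0.11 without each library. Deviations of same-numbered libraries correlated at -0.00, -0.06, 0.03 and 0.10 for numbers 1, 2, 3 and 5. Only 3 and 5 correlated best with their own number. So few and weak correlations do not settle whether replicate numbers pair the libraries. Every member had at least 151 counts in every library, yet 2 of the 4 calls were lost after thinning. The thinning was a single random draw. It removed reads from the deeper libraries and changed the genes tested from 14873 to 13374. Which of these changes led to the loss was not tested.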

Other observations

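Some members varied among the control libraries in a similar order, noticed after their values were seen. Control libraries 3 and 4 were the highest and control library 5 the lowest of the 5 for Ppm1k (78.1, 64.9 and 38.0 CPM), Dhtkd1 (55.4, 56.5 and 27.7 CPM) and Bcat2 (15.2, 13.8 and 11.4 CPM). The same libraries were highest and lowest for Mlxipl, which encodes the glucose-responsive factor ChREBP, at 281, 275 and 170.4 CPM. The order was not particular to these genes. Apob (6149, 5262 and 4084 CPM) and Slc25a32 (46.2, 50.2 and 27.4 CPM) had it too. So did the share of mitochondrially encoded transcripts (6.66%, 5.82% and 4.44%). What lies behind this order was not tested. Mlxipl did not pass between the groups (log2 fold change -0.10 ± 0.14, edgeR adjusted p = 0.766). Bckdk was instead highest in control library 5 (13.0 CPM). The coefficient of variation over the 5 controls was 29.99% for Ppm1k and 28.8% for Dhtkd1, against 2.41% for Bckdhb.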
